A study of Mus musculus with 22 samples.

Results

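The 9 genes described here form the core of insulin signalling from the cell surface to the nucleus: the receptors Insr and Igf1r, the receptor substrates Irs1, Irs2 and Irs4, the kinases Akt1 and Akt2, and the transcription factors Foxo1 and Foxo3. They were taken by name from 39056 genes in the count table, with earlier results of these data known, and all 9 were among the 14072 genes that passed a filter of at least 500 reads over the 22 libraries and detection in at least 3 of them. Irs4 passed it narrowly, with 540 reads in all, of which 243 came from 1 library. The samples were prefrontal cortex of 11 adult male mice, 8 to 12 weeks old, on a C57BL/6J background. Every mouse, the controls included, carried both the CaMKIIα-tTA transgene and tetO-EGFP/Rpl10a, so that the EGFP-tagged ribosomal protein L10a was made in cells in which the CaMKIIα promoter is active. Control mice (mice 1, 4 and 7) received saline, EtOH mice (mice 2, 5, 8 and 9) received ethanol at 2 g/kg per day, split over 2 intraperitoneal injections, for 4 days, and EtOH+ABT-888 mice (mice 3, 6, 10 and 11) received the same ethanol together with ABT-888, an inhibitor of poly(ADP-ribose) polymerase (PARP), at 25 mg/kg on the last day. Tissue was collected 2 h after the last injection. No group received ABT-888 without ethanol. From each mouse, 1 library was made from RNA bound to the tagged ribosomes (translating ribosome affinity purification, TRAP) and 1 from the total RNA of the same lysate.

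TRAP libraries held 6570957 to 22002618 reads assigned to genes and total-RNA libraries 22132534 to 32421392. Levels are given as CPM, the read count scaled to library size with TMM factors over all 22 libraries, and differences as log2 fold changes ± SE from the quasi-likelihood test of edgeR, adjusted over the 14072 genes by the Benjamini-Hochberg method, with a threshold of 0.05. In comparisons of treatments within a pool, the p-values measure the spread between mice. In comparisons of TRAP with total RNA and in the interactions, the libraries of a mouse were treated as independent, except where the mouse is named as a block. The make-up of the purified RNA was checked against marker lists in the Control mice. All 32 astrocyte, oligodendrocyte, microglial and vascular markers were lower in TRAP than in total RNA. All 8 markers of striatal projection neurons were higher in TRAP (summed level 7638 to 8931 CPM against 890 to 1059 CPM), while 6 of 8 excitatory pyramidal markers were lower and 1 was higher (summed level 4928 to 6270 CPM against 4285 to 5209 CPM). Of 8 interneuron markers 3 were higher and 3 lower (summed level 1851 to 1962 CPM against 919.7 to 972.7 CPM). Camk2a, the gene whose promoter drives the transgene, differed between TRAP and total RNA by -0.17 ± 0.11 (adjusted p = 0.203). The TRAP values below are therefore values of the labelled purification, in which pyramidal markers were not the enriched ones. In bulk RNA, fewer cells of a type and less RNA per cell cannot be told apart.

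Insulin and insulin-like growth factors bind the receptor tyrosine kinases Insr and Igf1r. The active receptor phosphorylates IRS adaptor proteins, which recruit PI3-kinase, and the lipid that this kinase makes brings Akt to the membrane, where it is activated. Akt in turn phosphorylates FoxO factors, which then leave the nucleus, so that genes FoxO activates are more active when insulin signalling is low. In the brain the pathway is known for its part in neuronal growth, synaptic function and energy balance. The RNA levels reported here do not measure phosphorylation or the location of these proteins.

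In saline-treated mice the members spanned a wide range of levels. Per kilobase of exon, Akt1 stood highest in TRAP at 37.3 CPM per kb, followed by Foxo3 (25.5) and Foxo1 (22), whose ranges over mice overlapped. Akt2 (11.7 CPM per kb) and Irs2 (10.7) came next and also overlapped, and Insr (6.77) and Igf1r (6.35) lay close together without overlapping. Irs1 was far lower at 1.49 CPM per kb and Irs4 nearly absent at 0.015. In total RNA the order was Akt1 (26.2 CPM per kb), Foxo3 (17.7), Irs2 (11.0), Akt2 (8.49), Igf1r (7.21), Insr (6.15), Foxo1 (5.70), Irs1 (3.66) and Irs4 (0.0721), and the only neighbours with overlapping ranges were Insr and Foxo1. After ethanol, Irs2 stood at rank 3 in both pools, at 25.8 CPM per kb in TRAP and 21.2 in total RNA, and Akt2 was at rank 6 in TRAP at 7.07 and at rank 7 in total RNA at 4.18. These ranks were not separated from all their neighbours. In TRAP the range of Irs2 overlapped with those of Foxo3 and Foxo1, and that of Akt2 with those of Insr and Igf1r. In total RNA Irs2 overlapped with Foxo3 but not with Igf1r, and Akt2 with Irs1 but not with Foxo1.

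**Figure D1:**
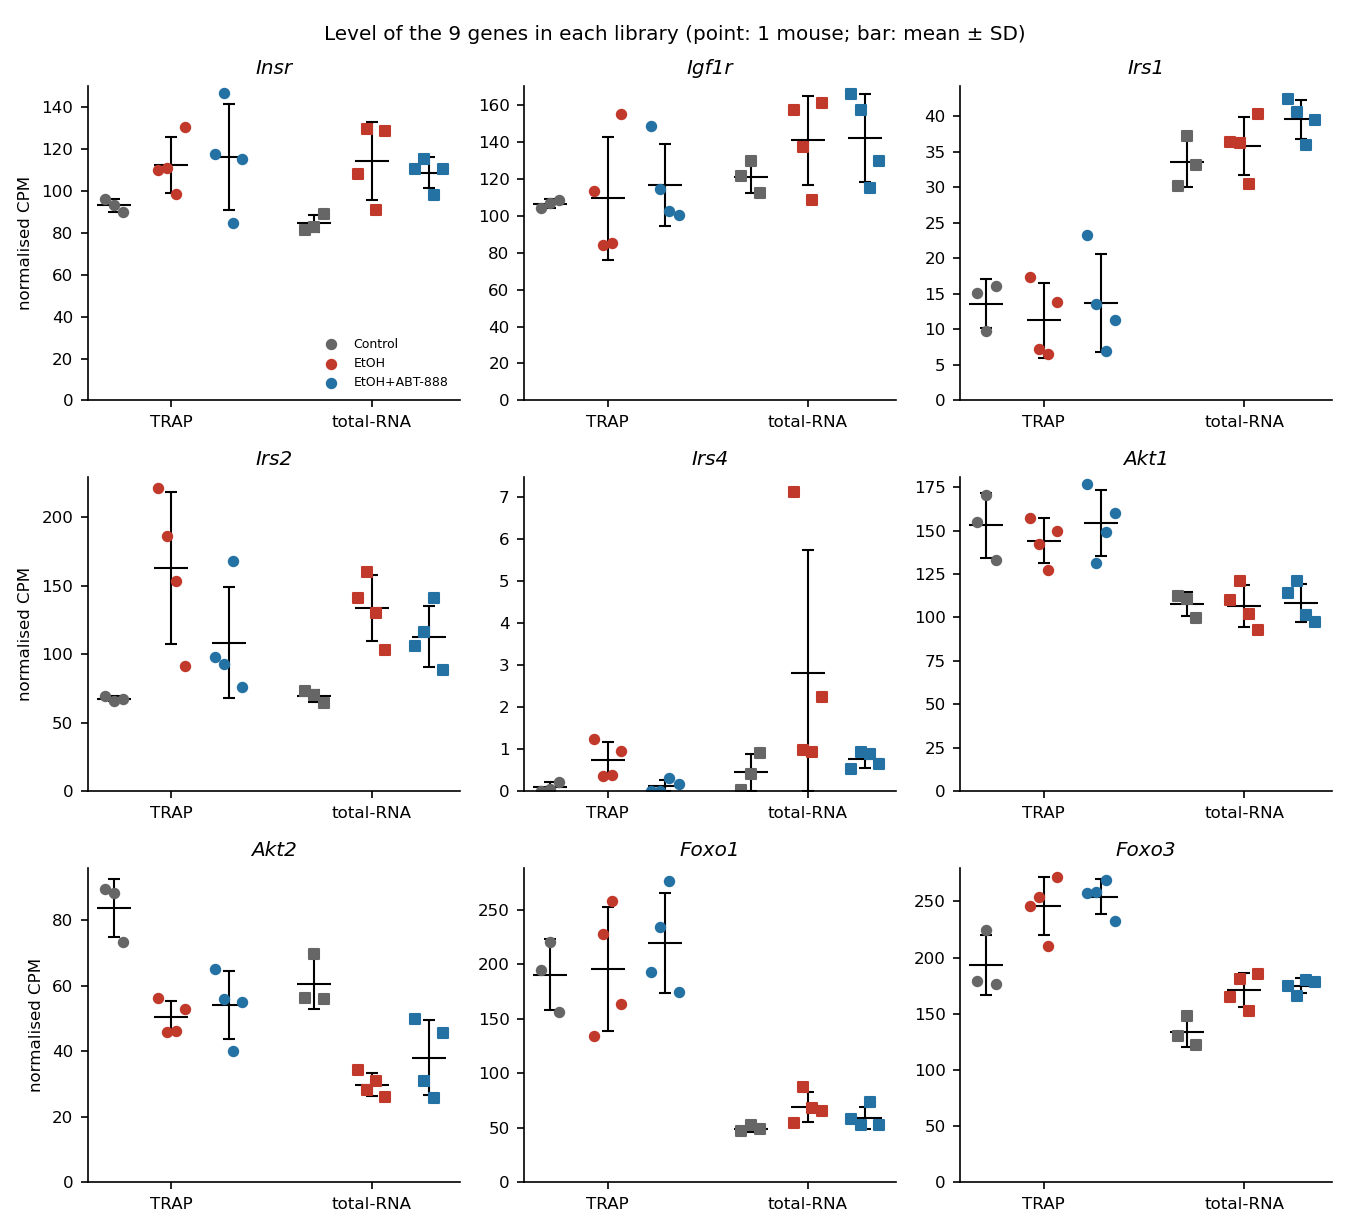
Level of each of the 9 genes in every library, in CPM on linear axes that differ between panels, for the Control, EtOH and EtOH+ABT-888 groups of the TRAP and total-RNA pools. Points are mice, and bars are the mean ± SD, with n = 3, 4 and 4 (for Irs4 the lower end is drawn no further than 0). Irs2 lies above and Akt2 below the Control points in every ethanol-treated mouse of both pools, and the single high point of Irs4 in total RNA is EtOH mouse 2.

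Comparing TRAP with total RNA of the same treatment asked which of the transcripts were relatively more abundant on the tagged ribosomes. In Control mice, Foxo1, Foxo3, Akt1 and Akt2 were higher in TRAP and Irs1 was lower, so 5 of the 9 genes passed the test, where 59.9% of all tested genes did. Of these, Foxo1 differed most, at 195, 220 and 156 CPM in the TRAP libraries of mice 1, 4 and 7 against 46.9, 52.6 and 48.9 CPM in their total RNA. These do not overlap, and the log2 fold change was 1.93 ± 0.12 (adjusted p = 3.55e-07). Irs1 went the other way, with 15, 9.75 and 16.1 CPM in TRAP against 30.2, 37.2 and 33.1 CPM in total RNA (-1.32 ± 0.18, adjusted p = 7.04e-05). Foxo3 (0.52 ± 0.11, adjusted p = 0.00216), Akt1 (0.49 ± 0.10, adjusted p = 0.00176) and Akt2 (0.45 ± 0.12, adjusted p = 0.00672) were each modestly higher in TRAP. The summed level of the striatal markers was higher in TRAP as well, and its part in the Foxo1 value was not tested. The 2 receptors and Irs2 did not pass the test (Insr 0.12, adjusted p = 0.237; Igf1r -0.20, adjusted p = 0.0752; Irs2 -0.05, adjusted p = 0.64), and neither did Irs4 with its few reads (-2.07 ± 1.06, adjusted p = 0.113), although the exact test of edgeR called it (adjusted p = 0.04).

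After ethanol, 6 of the 9 genes passed in the same comparison (50.7% of all genes), namely the 5 above and Irs4, which was lower in TRAP. With ABT-888, 5 passed (41% of all genes): Foxo1, Foxo3 and Akt1 higher, Irs1 and Irs4 lower. The calls of Irs4 rested on few reads. In EtOH mice its log2 fold change was -2.0 ± 0.70 (adjusted p = 0.0318), the TRAP and total-RNA levels overlapped, and the call was lost in 3 of 8 fits that left out 1 library, those without the TRAP library of mouse 5 or 8 or the total RNA of mouse 2 (-0.96, adjusted p = 0.211, without the last). In EtOH+ABT-888 mice it was -2.25 ± 0.74 (adjusted p = 0.0299) without overlap, and the call was lost in 4 of 8 such fits, those without the TRAP library of mouse 11 or the total RNA of mouse 6, 10 or 11 (adjusted p up to 0.0803). Foxo1 was higher in TRAP by 1.49 ± 0.21 in EtOH mice (adjusted p = 0.00016) and by 1.89 ± 0.18 in EtOH+ABT-888 mice (adjusted p = 2.05e-05). Per mouse, the log2 ratio of TRAP to total RNA for Foxo1 was 1.93 ± 0.223 (SD, n = 3) in Control, 1.48 ± 0.302 (SD, n = 4) in EtOH and 1.88 ± 0.198 (SD, n = 4) in EtOH+ABT-888 mice, and the groups overlapped. Foxo3 kept nearly the same ratio in all groups, at 0.529 ± 0.0717, 0.523 ± 0.0518 and 0.539 ± 0.112. Irs1 had the most variable ratio, from -0.87 in mouse 3 to -2.38 in mouse 10. The Irs1 level in TRAP was highest in mice 3 and 2, at 23.2 and 17.4 CPM, whose summed level of 32 glial and vascular markers was 1259 and 1185 CPM, but mouse 11, with the highest marker sum of 1804 CPM, held 11.3 CPM of Irs1. The part of those cells in the Irs1 value was not tested. Both libraries of a mouse come from the same lysate, and with the mouse as a block 8788, 8276 and 7642 of the 14072 genes passed in Control, EtOH and EtOH+ABT-888 mice, in place of 8428, 7141 and 5769. Irs4 then passed in Control mice as well (-2.25, adjusted p = 0.0327), Igf1r passed in EtOH mice (-0.41, adjusted p = 0.0145), and Igf1r (-0.29, adjusted p = 0.0343) and Akt2 (0.53, adjusted p = 0.00516) passed in EtOH+ABT-888 mice.

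**Figure D2:**
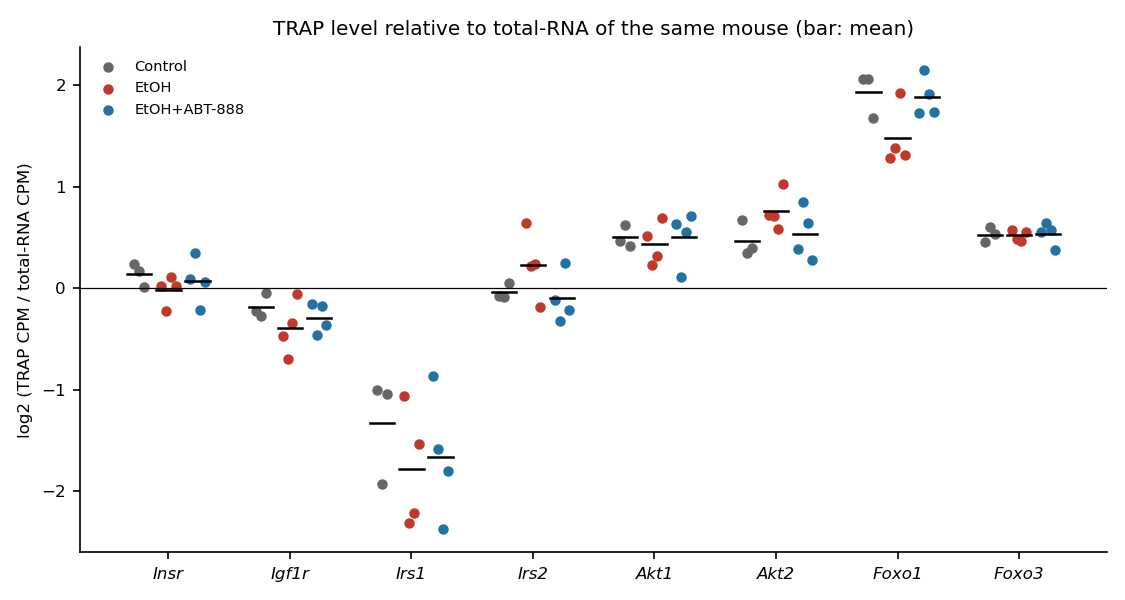
Log2 ratio of the TRAP level to the total-RNA level in each mouse for 8 of the genes, by treatment. Irs4 is left out because too few reads were counted, points are mice and horizontal bars are group means. Foxo1 lies well above 0 and Irs1 below 0 in all 11 mice, while the ratios of Insr and Irs2 lie around 0.

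Against saline, ethanol raised Irs2 and lowered Akt2 in both pools. In total RNA, Insr, Irs4, Foxo1 and Foxo3 were also higher, and Igf1r, Irs1 and Akt1 did not pass the test. In total RNA 6 of 9 members passed, 5 higher and 1 lower, where 17.6% of all genes passed (9.04% higher and 8.6% lower), and the same 6 genes had groups that did not overlap, against 30.5% of all genes. In TRAP 2 of 9 passed, against 5.24% of all genes (1 higher against 2.77%, 1 lower against 2.47%), and 4 did not overlap (Insr, Irs2 and Irs4 higher, Akt2 lower), against 22.3%. The median log2 fold change over the 9 genes was 0.36 in total RNA and 0.07 in TRAP, beside medians of 0.00 and 0.02 over all tested genes. Calls of Irs2 and Akt2 in total RNA held when any 1 library was left out. The total-RNA calls of Insr, Irs4, Foxo1 and Foxo3 were each lost without any 1 of the Control mice, and the TRAP calls of Irs2 and Akt2 were lost in the same way. The log2 fold changes kept their direction in these fits, at 1.12 to 1.47 for Irs2 and -0.81 to -0.66 for Akt2 in TRAP, and at 0.37 to 0.53 for Insr, 1.52 to 3.55 for Irs4, 0.35 to 0.58 for Foxo1 and 0.30 to 0.43 for Foxo3 in total RNA over all libraries left out in turn. Without EtOH mouse 5, 3 of the 6 genes passed in total RNA. In a single fit over all 22 libraries only Akt2 passed there (Irs2 0.95, adjusted p = 0.0686), and in a fit over the 11 TRAP libraries Akt2 did not pass in TRAP (-0.72, adjusted p = 0.0518).

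**Figure D3:**
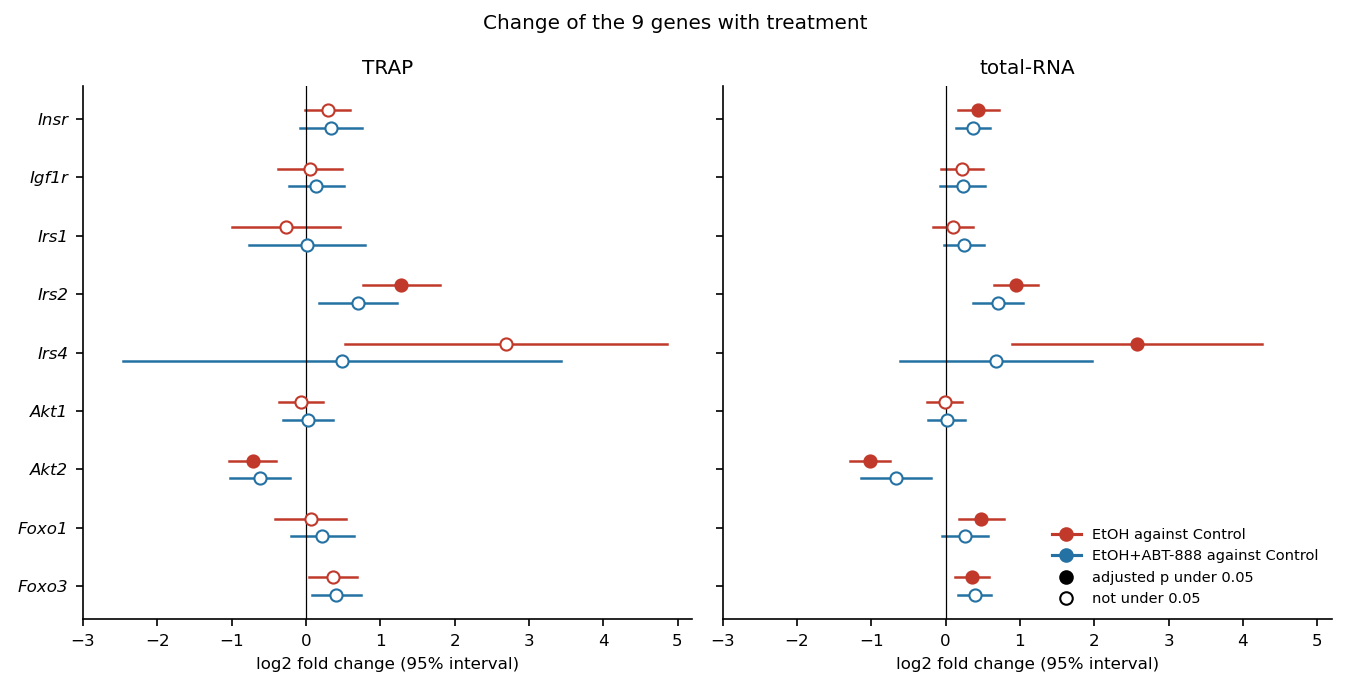
Log2 fold change of each gene with its 95% confidence interval for EtOH against Control and EtOH+ABT-888 against Control, in the TRAP and total-RNA pools. Filled points have an adjusted p under 0.05. Irs2 is to the right of 0 and Akt2 to the left in both comparisons, and no point is filled for EtOH+ABT-888 against Control.

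Of the receptors, Insr, the insulin receptor, was measured in total RNA at 81.3, 83.0 and 89.2 CPM in the Control mice and at 108, 130, 90.9 and 129 CPM in the EtOH mice. All EtOH values lay above all Control values, mouse 8 only just. The log2 fold change was 0.44 ± 0.13 (adjusted p = 0.0341). In TRAP the Control levels of Insr were 95.9, 93.5 and 89.9 CPM and the EtOH levels 110, 111, 98.3 and 130 CPM, again without overlap, but the difference of 0.29 ± 0.14 did not pass (adjusted p = 0.241). Igf1r, the receptor for insulin-like growth factor 1, varied more between the EtOH mice, from 84.2 to 155 CPM in TRAP and from 108 to 161 CPM in total RNA, and overlapped with the Control mice in both (0.05, adjusted p = 0.904, and 0.22, adjusted p = 0.26). Mouse 9 held the highest Igf1r level of its group in both pools.

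Irs2, an adaptor that carries the receptor's signal to PI3-kinase, had the largest change in TRAP among the well-expressed members, and in total RNA the largest after Akt2. In TRAP it measured 69.7, 66.1 and 67.2 CPM in the Control mice and 222, 186, 153 and 91.3 CPM in EtOH mice 2, 5, 8 and 9. In total RNA the Control levels were 73.5, 70.0 and 64.7 CPM and the EtOH levels 141, 160, 130 and 103 CPM. The Control mice were tightly grouped, every EtOH mouse lay above them, and mouse 9 was the lowest of the EtOH mice in both pools. The log2 fold change was 1.28 ± 0.24 in TRAP (2.44-fold, 95% interval 0.76 to 1.80, adjusted p = 0.0141) and 0.95 ± 0.14 in total RNA (1.93-fold, 0.66 to 1.24, adjusted p = 0.000979). The interaction of ethanol with pool was 0.32 ± 0.35 (adjusted p = 1), so the larger value in TRAP was not separated from that in total RNA.

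Irs4, a substrate found in few tissues and known from the hypothalamus, was counted so rarely that its values rest on single libraries. Its total-RNA reads numbered 1, 12 and 29 in the Control mice and 243, 31, 23 and 50 in EtOH mice 2, 5, 8 and 9, or 0.0415, 0.414 and 0.905 CPM against 7.13, 0.977, 0.937 and 2.25 CPM. Mice 5 and 8 lay just above the highest Control mouse, and mouse 2 far above all others. The fitted log2 fold change was 2.58 ± 0.78 (adjusted p = 0.0384), and without mouse 2 it was 1.52 (adjusted p = 0.111). In TRAP the reads were 0, 1 and 4 in Control mice and 17, 8, 8 and 14 in EtOH mice (2.69 ± 1.00, adjusted p = 0.134). The exact test of edgeR called Irs4 in TRAP (adjusted p = 0.0352), and DESeq2 did not call it in total RNA (adjusted p = 0.0729). Markers of the septum, hypothalamus and preoptic area were also counted in total RNA, with a summed level over 10 genes of 18.7 to 35.4 CPM in Control and 20.8 to 58.8 CPM in EtOH mice, highest in mouse 2. Of the 3 that could be tested, 1 was higher, and 1 of the 10, the hormone gene Oxt, was at 0 in all Control mice. In EtOH mice 2, 5, 8 and 9, Oxt measured 2.40, 0.0945, 0.0815 and 0.630 CPM, and the hormone gene Avp 0.909, 0.0630, 1.91 and 3.51 CPM beside 0.0416, 0 and 0.125 CPM in Control mice. Oxt was thus highest in mouse 2, as Irs4 was, and Avp in mouse 9. Zic1, of the same list, measured 45.18, 29.15, 11.53 and 13.05 CPM in these EtOH mice. In Control mice it measured 29.04, 13.12 and 21.36 CPM, so the groups overlapped. It made up 45.18 of the summed 58.8 CPM in mouse 2. Sim1 was highest in mouse 9 (1.665 CPM), and Hcrt stayed at 0.1759 CPM or below. The part of these markers in the Irs4 value was not tested.

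Irs1, the other widely used receptor substrate, did not pass in either pool. Its total-RNA levels were 30.2, 37.2 and 33.1 CPM in Control and 36.4, 36.1, 30.4 and 40.2 CPM in EtOH mice, which overlapped (0.10, adjusted p = 0.618). In TRAP its EtOH levels spread from 6.54 to 17.4 CPM around the Control levels of 9.75 to 16.1 CPM (-0.27 ± 0.33, adjusted p = 0.668). Without EtOH mice 2 and 9 Irs1 was called lower there (-0.94, adjusted p = 0.0381). That fit was chosen after seeing the data. It leaves out the highest Irs1 levels of the EtOH group (17.4 and 13.9 CPM), so its call does not show a lower level. Exons of Irs1, Irs2, Irs4 and Foxo1 overlap a gene on the opposite strand, but those partner genes held 29, 45, 0 and 0 reads over all libraries, against 13641 for Irs1, 55430 for Irs2, 540 for Irs4 and 54008 for Foxo1. The strand setting of the counting is not given in the sources used here.

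The promoters of the 3 receptor substrates are shown because each holds the same pair of motifs, and because Irs2 is among them. The stretches are 100 bases each on the minus strand, read 5′ to 3′, from the RefSeq promoter windows of GRCm38.p6 (mm10), which reach from 250 bases before the transcript start to 50 after it. They lie at chr1:82291515-82291614 for Irs1, chr8:11008934-11009033 for Irs2 and chrX:141725332-141725431 for Irs4. Capitals mark the E-box CACGTG, a motif bound by basic helix-loop-helix factors, and TGTTTTG, a motif known from insulin-repressed promoters, which overlap in Irs1.
Irs1: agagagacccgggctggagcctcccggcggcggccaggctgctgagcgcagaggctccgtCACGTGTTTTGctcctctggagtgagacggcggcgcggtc
Irs2: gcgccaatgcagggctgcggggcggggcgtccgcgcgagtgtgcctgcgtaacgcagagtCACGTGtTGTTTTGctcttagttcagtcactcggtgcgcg
Irs4: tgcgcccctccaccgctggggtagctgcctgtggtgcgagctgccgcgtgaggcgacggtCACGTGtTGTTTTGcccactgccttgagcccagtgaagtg
The E-box begins 115 bases before the transcript start in Irs1, 44 in Irs2 and 154 in Irs4, and TGTTTTG begins 4, 7 and 7 bases further on. Irs2 and Irs4 share the unbroken run GTCACGTGTTGTTTTGC of 17 bases across this pair.

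Searched on both strands, CACGTG was found in 7.15% and TGTTTTG in 6.28% of 32851 mouse promoter windows, and each occurred in Irs1, Irs2 and Irs4 among the 8 members with a window. The FoxO consensus GTAAACA was found in 3.65% of windows and in 1 window of Akt1. The pair with TGTTTTG beginning within 16 bases after the start of the E-box, a spacing chosen after the sequences were seen, occurred in 12 windows (0.0365%) of 10 genes, 3 of them the Irs genes. Of the other 7 genes, 4 were tested. In EtOH against Control, 1 of these 4 was higher and none lower in each pool: Fam214a, named after its values were seen (TRAP 1.32 ± 0.17, adjusted p = 0.00253; total RNA 1.06 ± 0.12, adjusted p = 0.000322). Irs1 holds the same pair and did not pass. A match describes letters in the window and does not show that a factor binds there.

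Of the kinases, Akt2 fell with ethanol and Akt1 did not pass the test. Akt2, the isoform best known for insulin-stimulated glucose uptake, measured 89.4, 88.2 and 73.5 CPM in the TRAP libraries of Control mice and 56.3, 46.0, 46.3 and 52.9 CPM in those of EtOH mice. In total RNA it measured 56.2, 69.6 and 55.9 CPM against 34.2, 28.2, 31.0 and 26.0 CPM. The highest EtOH mouse lay well below the lowest Control mouse in both pools. The log2 fold change was -0.72 ± 0.14 in TRAP (0.609-fold, 95% interval -1.03 to -0.40, adjusted p = 0.0185) and -1.02 ± 0.12 in total RNA (0.493-fold, -1.29 to -0.75, adjusted p = 0.000463). Akt1, the broadly expressed isoform with a known role in growth and survival, ranged over 99.8 to 112 CPM in Control and 92.5 to 121 CPM in EtOH total RNA (-0.01, adjusted p = 0.948), and over 133 to 170 CPM and 127 to 157 CPM in TRAP (-0.07, adjusted p = 0.814).

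Of the FoxO factors, both were higher with ethanol in total RNA. Foxo3, which is known for stress resistance and control of cell survival genes, measured 131, 148 and 122 CPM in Control and 165, 181, 152 and 185 CPM in EtOH total RNA (0.36 ± 0.11, adjusted p = 0.039). In TRAP its change had the same size but overlapped, with 179, 224 and 177 CPM against 246, 254, 210 and 272 CPM (0.36 ± 0.15, adjusted p = 0.164). Foxo1, known for its control of metabolic genes, measured 46.9, 52.6 and 48.9 CPM in Control and 54.9, 87.5, 67.9 and 65.7 CPM in EtOH total RNA, where mouse 5 was the highest and mouse 2 lay close to the Control mice (0.48 ± 0.14, adjusted p = 0.0346). In TRAP, Foxo1 was already far higher in Control mice, at 156 to 220 CPM, and the EtOH mice spread from 134 to 258 CPM around them (0.07, adjusted p = 0.894). The interaction of ethanol with pool for Foxo1 was -0.44 ± 0.29 (adjusted p = 1), so the change in total RNA was not shown to differ from that in TRAP. None of the 9 genes passed in either interaction, beside 0.0213% of all genes for EtOH and 0% for EtOH+ABT-888, and none had an unadjusted p under 0.05, beside 4.87% and 3.38%. With the mouse as a block none passed either, but Foxo1 had an unadjusted p under 0.05 for EtOH (-0.46, adjusted p = 0.352), as had 1488 of all genes.

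Markers of other cells moved with ethanol beside these changes. In total RNA 7 of 8 microglial markers were lower, with a summed level of 341 to 349 CPM in Control, 131 to 196 CPM in EtOH and 132 to 281 CPM in EtOH+ABT-888 mice, and no marker of the list was at 0. Of the 8 excitatory pyramidal markers 3 were lower in total RNA, and in TRAP 1 was lower in EtOH mice (median log2 fold change -0.84) and 2 in EtOH+ABT-888 mice (-1.02). Also in EtOH total RNA, 3 of 8 endothelial and pericyte markers were lower, 2 of 8 striatal markers were higher, 2 of 8 astrocyte markers were higher and 1 lower, and 1 of 8 interneuron and 1 of 8 oligodendrocyte markers were higher, while in EtOH TRAP 1 of 8 microglial and 1 of 8 striatal markers were lower. Besides that of the microglial list, 3 summed levels did not overlap between Control and EtOH total RNA. That of the interneuron markers was 919.7 to 973 CPM in Control and 1002 to 1071 CPM in EtOH mice, that of the endothelial and pericyte markers was 164 to 191 CPM and 122 to 163 CPM, and that of 6 olfactory bulb markers was 11.4 to 17 CPM and 20 to 24.3 CPM. In EtOH+ABT-888 TRAP no oligodendrocyte or endothelial and pericyte marker passed against Control, with median log2 fold changes of 0.79 and 0.82. Mice 3 and 11 stood apart there, with a summed level of the 32 glial and vascular markers of 1259 and 1804 CPM beside 488 and 629.9 CPM in mice 6 and 10 and 492 to 716 CPM in Control mice. The part of these shifts in the values of Irs2, Akt2, Insr and the FoxO genes, with ethanol alone or with ABT-888, was not tested.

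With ABT-888 added to ethanol, Irs2 and Foxo3 lay above and Akt2 below every Control mouse in both pools, but none of the 9 passed the test in either pool, where 0.476% of all genes passed in TRAP and 0.263% in total RNA. Those shares, 67 and 37 genes, depend on the test, with 318 and 544 genes by the exact test of edgeR, 423 and 621 by DESeq2, and 0 to 373 and 0 to 870 when 1 library was left out. These comparisons share their 3 Control mice with those of ethanol alone. At an unadjusted p under 0.05, 3 of 9 members were past the threshold in TRAP (12.1% of all genes) and 4 in total RNA (15.9%). The groups did not overlap for Irs2, Akt2 and Foxo3 in TRAP (14% of all genes) and for these and Insr in total RNA (16.9%). Irs2 measured 97.8, 92.8, 168 and 76.1 CPM in TRAP of EtOH+ABT-888 mice 3, 6, 10 and 11 and 106, 116, 141 and 88.2 CPM in their total RNA, all above the Control mice (0.70 ± 0.24, adjusted p = 0.261, and 0.70 ± 0.15, adjusted p = 0.0824). Akt2 measured 65.1, 56.0, 40.1 and 55.1 CPM in TRAP and 49.9, 31.0, 25.7 and 45.6 CPM in total RNA, all below the Control mice (-0.62 ± 0.19, adjusted p = 0.189, and -0.67 ± 0.21, adjusted p = 0.179). Mouse 10 held the highest Irs2 and the lowest Akt2 of its group in both pools, and the highest Foxo1 as well, at 277 CPM in TRAP and 73.7 CPM in total RNA. Foxo3 was 232 to 269 CPM in TRAP (0.41 ± 0.15, adjusted p = 0.289) and 166 to 180 CPM in total RNA (0.39 ± 0.10, adjusted p = 0.122), and Insr was 98.1 to 115 CPM in total RNA (0.37 ± 0.10, adjusted p = 0.142). The other members overlapped with the Control mice, with log2 fold changes in TRAP of 0.33 for Insr, 0.14 for Igf1r, 0.01 for Irs1, 0.48 for Irs4, 0.02 for Akt1 and 0.22 for Foxo1 (adjusted p = 0.515 to 0.993). In total RNA they were 0.23 for Igf1r, 0.24 for Irs1, 0.67 for Irs4, 0.02 for Akt1 and 0.26 for Foxo1 (adjusted p = 0.36 to 0.963). In total RNA, DESeq2 called Insr, Irs2 and Foxo3, the exact test called Irs2 and Foxo3, and leaving out mouse 3 gave calls of Irs2 and Akt2.

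Comparing EtOH+ABT-888 with EtOH directly asked whether PARP inhibition changed the response. None of the 9 genes passed in TRAP or in total RNA with edgeR, where 0% of all genes passed in each, and neither the exact test of edgeR nor DESeq2 called a member (each called 0 genes in TRAP and 2 in total RNA). At an unadjusted p under 0.05 there were 136 genes in TRAP (0.966%) and 269 in total RNA (1.91%). The TRAP count was 914 without EtOH+ABT-888 mouse 10, and 100 to 319 without any other 1 library. Of the genes in the main counts, 1 in each pool was a member, Irs4. Its total-RNA levels with ABT-888 were 0.541, 0.946, 0.896 and 0.656 CPM, and only the highest of them exceeded the lowest EtOH mouse, at 0.937 CPM (-1.91 ± 0.59, unadjusted p = 0.00699 in edgeR's quasi-likelihood test, adjusted p = 1). In TRAP its levels were 0, 0, 0.317 and 0.187 CPM in mice 3, 6, 10 and 11, from 0, 0, 6 and 3 reads, all below the EtOH mice at 0.371 to 1.24 CPM (fitted -2.23 ± 1.00, unadjusted p = 0.0431 in the same test, adjusted p = 1). Irs4 in TRAP was the only member without overlap in this comparison, where 0.945% of all genes did not overlap in TRAP and 1.36% in total RNA. For Irs2 the difference was -0.58 in TRAP (95% interval -1.18 to 0.01) and -0.25 in total RNA (-0.60 to 0.11), and for Akt2 it was 0.10 in TRAP (-0.29 to 0.49) and 0.35 in total RNA (-0.08 to 0.78). The differences of Insr, Igf1r, Irs1, Akt1, Foxo1 and Foxo3 ranged from 0.04 to 0.28 in TRAP and from -0.22 to 0.14 in total RNA (adjusted p = 1 for each). The intervals of Irs2 and Akt2 include 0 and are wide, so a partial return towards the Control level was neither shown nor bounded closely.

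The wider pathway was described with 9 lists of 102 genes, of which 91 were tested and 11 were too low, among them Ins1, Ins2 and Irs3. In EtOH total RNA 33 of the 91 passed, 24 higher and 9 lower, or 36.3% beside 17.6% of all genes. Among ligands and binding proteins, Igfbp3 rose (0.57, adjusted p = 0.0194) and Igfbp2 (-0.83, adjusted p = 0.00305) and Igfbp6 (-0.66, adjusted p = 0.0113) fell, of 9 tested. Among 3 other receptors, the sorting receptor Sorl1 fell (-0.56, adjusted p = 0.00368). Of 12 other adaptors, 4 rose and 2 fell. The docking proteins Dok5 (-1.22, adjusted p = 0.000697) and Shc3 (-0.97, adjusted p = 0.000975) fell, and Crkl (0.58, adjusted p = 0.0045) and Gab2 (0.69, adjusted p = 0.00974) rose. None of the 11 genes for PI3-kinase, PDK1 and mTORC2 passed the test.

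The kinases next to Akt and the inhibitors of the pathway held larger changes. Sgk1, a kinase that shares substrates with Akt and is induced by glucocorticoids, rose from 58.3 ± 5.67 CPM (SD, n = 3) in Control to 214 ± 33.2 CPM (SD, n = 4) in EtOH total RNA (1.88 ± 0.13, adjusted p = 1.67e-05), and its relative Sgk3 rose by 1.33 ± 0.21 (adjusted p = 0.0017). Of 18 inhibitors, 6 rose and 4 fell. Pik3ip1, which restrains PI3-kinase, rose by 0.99 (adjusted p = 0.00126). Socs3, an induced inhibitor of receptor signalling, rose by 2.41 (adjusted p = 0.00245) from a low level, and had 0.789 to 1.11 CPM in Control and 1.93 to 8.30 CPM in EtOH mice. Inpp5k, a lipid phosphatase, rose by 0.60 (adjusted p = 0.00726), and Trib2, a pseudokinase, changed by -0.77 (adjusted p = 0.0035). Of 12 Akt substrates only Mdm2 passed (0.41, adjusted p = 0.0186), and neither Foxo4 nor Foxo6 did.

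Known FoxO target genes were the list with the most genes higher in EtOH total RNA. It was also the longest list tested, and was chosen with earlier results of these data known. By share, the list of kinases next to Akt stood higher (66.7%). Of 21 tested, 10 rose and none fell (47.6% higher beside 9.04% of all genes, median log2 fold change 0.35), with 7 to 10 higher and 0 to 1 lower when 1 library was left out. A single fit over all 22 libraries called 3 of them, and 7 of the 91 over all lists. In EtOH TRAP 1 of the 21 rose and none fell (4.76% higher beside 2.77% of all genes, median log2 fold change 0.23), with 0 to 2 higher when 1 library was left out. Cdkn1a, an inhibitor of the cell cycle, went from 14.8 ± 1.45 CPM (SD, n = 3) in Control to 59.7 ± 14 CPM (SD, n = 4) in EtOH mice (2.01 ± 0.18, adjusted p = 5.74e-05). Txnip, which restrains glucose uptake and thioredoxin, went from 15.8 ± 1.17 to 56.4 ± 12 CPM (1.84 ± 0.16, adjusted p = 5.74e-05). The stress gene Sesn1 (0.81, adjusted p = 0.000697) and the transcription factor Klf15 (1.19, adjusted p = 0.00137) also rose. Whether FoxO acted on any of these genes was not tested. Over all lists, leaving out Control mouse 1, 4 or 7 left 21, 19 or 23 of the 33 calls in number.

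In EtOH TRAP 8 of the 91 passed, 6 higher and 2 lower, or 8.79% beside 5.24% of all genes. Pik3ip1 (1.25, adjusted p = 0.0101), Gab2 (1.03, adjusted p = 0.0279), Sgk1 (0.95, adjusted p = 0.00672), Inpp5k (0.68, adjusted p = 0.0414), Mdm2 (0.57, adjusted p = 0.0398) and Txnip (1.52, adjusted p = 0.0483) rose. Dok5 (-1.55, adjusted p = 0.00421) and Trib2 (-1.80, adjusted p = 0.0157) fell, Trib2 from 69.2 ± 11.9 to 19.4 ± 10.6 CPM. All 8 also passed in total RNA with the same direction. Without Control mouse 1, 4 or 7, 1, 2 or 3 of the 91 passed, without EtOH mouse 2 or 5, 5 passed, and without EtOH mouse 9, 13 passed. In place of 6 higher and 2 lower, there were 9 and 9 without EtOH mice 2 and 9, 2 and 2 in a fit over the 11 TRAP libraries, 7 and 6 in a fit over all 22, 8 and 4 by the exact test of edgeR and by DESeq2, 10 and 4 without the filter on low counts, and 1 and 1 at an adjusted p under 0.01. In EtOH+ABT-888 mice, Pik3ip1 rose (1.56, adjusted p = 0.0277) and Trib2 fell (-1.54, adjusted p = 0.0472) in TRAP, and Sgk1 (1.72, adjusted p = 0.0363), Pik3ip1 (1.12, adjusted p = 0.047) and Txnip (2.03, adjusted p = 0.047) rose in total RNA, or 2.2% and 3.3% of the 91 beside 0.476% and 0.263% of all genes. Both counts became 0 without any 1 of mice 1, 4, 6, 7 or 11. The count of 3 in total RNA became 21 without mouse 3 and 11 without mouse 10, and the count of 2 in TRAP became 5 and 4. The count in total RNA was 17 by the exact test of edgeR, 16 higher and 1 lower, and 19 by DESeq2, 18 higher and 1 lower, with 7 and 9 FoxO target genes higher. In TRAP the same tests gave 3 higher and 1 lower, and 4 higher and 1 lower. Between EtOH+ABT-888 and EtOH none of the 91 passed in either pool.

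**Figure D4:**
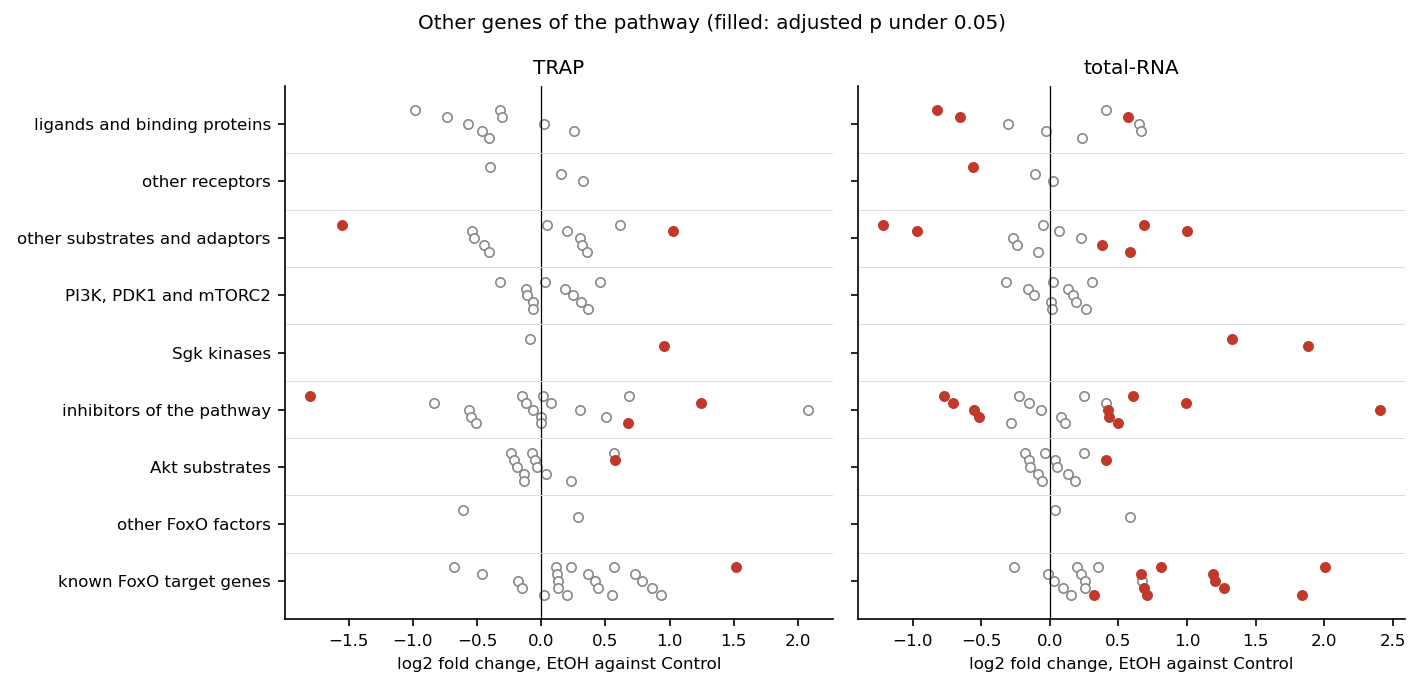
Log2 fold change of EtOH against Control for genes of the 9 pathway lists (of the kinases next to Akt, the Sgk genes), in TRAP and in total RNA, 1 point per gene, with filled points at an adjusted p under 0.05. In total RNA the filled points of the known FoxO target genes are all above 0 (10 of 21 genes), and no gene of the PI3-kinase, PDK1 and mTORC2 list is filled.

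Over the 11 libraries of a pool, 52 genes in TRAP and 167 in total RNA had an r over 0.9 with Irs2, and 73 and 70 with Akt2. The genes most like Irs2 by Pearson's r of log2 CPM were Vps51 (0.976), 2010300C02Rik (0.963) and Zfp318 (0.961) in TRAP and Ppp1r13b (0.978), Prr14 (0.977) and 2010300C02Rik (0.974) in total RNA. Akt2 was most like Basp1 (0.970), Dmtn (0.963) and Wwc1 (0.958) in TRAP and Ramp3 (0.966), Lpcat2 (0.963) and Coa4 (0.963) in total RNA. In total RNA, Insr was nearest to Acap2 (0.947), Foxo1 to Ice1 (0.962) and Foxo3 to Tmem189 (0.938). Among the members themselves, Irs2 and Akt2 ran opposite to each other, with r = -0.848 in total RNA and -0.747 in TRAP over the 11 libraries. These values describe libraries that share treatments and scaling, and they follow in part from the group differences above.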

How the data were processed

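The authors depleted ribosomal RNA, made libraries with the CORALL kit, aligned paired-end reads to mm10 with STAR and counted them with featureCounts. The deposited file holds whole-number counts per gene, and versions, strand setting and treatment of multi-mapped reads are not given in the sources used here. Fits used edgeR 4.0.16 in R 4.3.3 (quasi-likelihood, TMM, at least 500 reads in all and detection in 3 libraries), on the libraries of the groups compared, and on all 22 for interactions. A prior count of 1 was used for log2 CPM, and levels per kb used exon lengths of GENCODE M21. Both libraries of a mouse were paired by animal number: deviations from the group means correlated at 0.102 to 0.173 in Control, 0.326 to 0.408 in EtOH and 0.117 to 0.622 in EtOH+ABT-888 mice (mouse 6 correlated more with another mouse, at 0.14). All 9 members were tested in every comparison, and values are given for those a result turns on, the others by range. Of each pathway list, up to 4 genes per treatment comparison with the smallest adjusted p under 0.05 are named, and up to 3 genes of highest Pearson r. Members and lists were chosen with earlier results of these data known. Fits were tested on simulated data. Alternatives were other tests (edgeR exact and likelihood ratio tests, DESeq2 1.42.0), scaling, filters, libraries and thresholds. Values of some genes that these rules would name are not reported here.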

Additional observations from a re-analysis of the deposited data

How the results depend on the processing

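Members passing in EtOH against Control in TRAP (2) became 0 at an adjusted p under 0.01, 1 in a single fit over the 11 libraries of the pool, and 0 to 2 with 1 library left out (0 without Control mouse 1, 4 or 7). They became 3 with edgeR's exact test, which added Irs4, and 3 without EtOH mice 2 and 9, which added Irs1. In total RNA (6) they became 1 in a single fit over all 22 libraries (Akt2), 2 at an adjusted p under 0.01 (Irs2 and Akt2), 3 in the fit over the 11 libraries of the pool, 3 without EtOH mice 2 and 9, 5 with DESeq2, which dropped Irs4, and 2 to 5 with 1 library left out. The fits over 11 libraries and without mice 2 and 9 were chosen after seeing the data. For EtOH+ABT-888 against Control, the count of 0 became 1 in TRAP without a filter on low counts, and in total RNA 2 with edgeR's exact test, 3 with DESeq2, 2 without the filter and 0 to 2 with 1 library left out (2 without mouse 3, 1 without mouse 10). TRAP against total RNA gave 5 to 8 members in EtOH mice with 1 library left out, in place of 6, and in EtOH+ABT-888 mice 3 at an adjusted p under 0.01 and 3 to 6 with 1 library left out (3 without the total RNA of mouse 11), in place of 5. With the mouse as a replicate block the 3 comparisons of TRAP with total RNA gave 6, 7 and 7 members, and the block changed no member's call in the interactions, where it moved the count over all genes from 3 to 14 for EtOH and left it at 0 for EtOH+ABT-888. Of 1521 member values under alternatives, 95 changed sign, none of them called in either fit. The counts over all genes moved as well: the 737 of EtOH TRAP became 1372 with the exact test, 1491 with DESeq2, 1472 without the filter, 1191 over 22 libraries, 205 over 11, 2749 without EtOH mice 2 and 9, 87 at an adjusted p under 0.01 and 84 to 1550 with 1 library left out, and the 2482 of EtOH total RNA became 3009, 3106, 3436, 151, 1033, 3723, 802 and 878 to 3616 in the same order. For EtOH+ABT-888 against Control, no filter and the fits over 22 and 11 libraries gave 454, 403 and 33 in TRAP, in place of 67, and 544, 32 and 135 in total RNA, in place of 37, and both became 0 at an adjusted p under 0.01. Why calls were lost without a Control mouse was not tested. Irs4 is limited by its few reads.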
